A study of Homo sapiens with 6 samples.

Results

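The genes described here encode the cytosolic protein-folding machinery: the chaperonin TRiC (also called CCT), prefoldin, the HSP70 and HSP90 chaperones with their J-domain, BAG and other cochaperones, the small heat shock protein HSPB1 and the heat shock factors. A list of 38 such genes was taken by symbol. The rule names no measured values, but the list was chosen with earlier results of these data known. A gene entered when at least 1 probe set carried its symbol alone. That held for 32 of the 38, among 19775 genes in all. TCP1, HSPA8 and PFDN6 were represented by probe sets that also carry the symbol of a small RNA, so they are not analysed here, and neither are HSF2 and AHSA1. HSPA1A was represented by probe sets shared with HSPA1B, which are given apart and enter no count.

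RNA came from MM1S, a long-established line of human myeloma cells, the malignant form of antibody-secreting plasma cells. The groups are MM1S cells in hypoxia for 24 h (3 arrays) and MM1S cells in normoxia (3 arrays), with no other treatment or genetic change in the labels. The labels used here name no oxygen level. The treatment text naming hypoxia stands on the normoxia samples too, and groups follow the condition label. Nothing says that the arrays came from separate cultures, so the spread behind every p-value is that among these arrays and may be technical. In bulk RNA a gene silenced in some cells and one lowered in all cells cannot be told apart.

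New polypeptides are received by HSP70 with J-domain proteins, which deliver substrates and stimulate its ATPase. Nucleotide exchange factors of the HSP110 and BAG families then release them. HSP90 acts later, on partly folded kinases and hormone receptors, together with cochaperones, while prefoldin hands actin and tubulin to the ring-shaped chaperonin. Plasma cells make large amounts of secreted protein and are known for a high demand on protein folding. HSF1 is the transcription factor that turns on many of these genes when unfolded protein accumulates.

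Values are linear intensities in arbitrary units, given as mean ± SD (n = 3 arrays per group) or array by array in the order of replicates 0, 1 and 2. Changes are the hypoxia mean less the normoxia mean of log2(intensity + 16), where the added 16 makes dim genes change less than they would on plain intensities. A gene passed when its adjusted p in limma, with Benjamini-Hochberg adjustment over all 19775 genes, was under 0.05. Each gene was read by its brightest probe set, and other probe sets were tested in a fit over the 41091 probe sets with 1 symbol. The median probe set of an array lay between 54.95 and 60.1, and the measured chaperone genes lay between the 54.7th and 99.5th percentile of brightness over all genes. All 10 listed genes known to respond to hypoxia rose. They were chosen with earlier results of these data known, so they give no independent check of the hypoxia label. Among them, HILPDA, a lipid droplet protein gene, was at 6052 ± 69.7 in hypoxia and 492 ± 47.2 in normoxia. The collagen hydroxylase gene P4HA1 was at 7263 ± 148 and 1376 ± 69.8. All 8 plasma cell markers were measured, the dimmest being CD38 at 198 in hypoxia and 335 in normoxia. Of these, SDC1, CD38, SLAMF7 and MZB1 fell (-0.71 to -0.26), XBP1 rose (0.22) and 3 did not pass, and their summed intensity was 41274 to 43026 in hypoxia and 42834 to 44440.3 in normoxia. Of 18 measured markers of T, myeloid, stromal, erythroid and epithelial cells, 2 rose and 2 fell, and 14 were below 100 in both groups. The summed intensity of these other markers was 2386 to 2551 in hypoxia and 3196 to 3371 in normoxia, of which the globin gene HBB gave 1125 and 1751. The part of either marker list in the changes below was not tested.

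Cytosolic chaperone genes were more often lower than higher in hypoxia. Of the 32 measured genes, 17 fell (53.1%), 3 rose (9.38%) and 12 did not pass. Over all genes 20.6% fell, 16.9% rose and 37.4% were called in either direction. The median change was -0.21, against -0.00016 over all genes. All 3 hypoxia arrays lay on one side of all 3 normoxia arrays for 24 of the 32 genes (75%), below in 19 and above in 5, while this held for 47.9% of all genes. Because the chaperone genes are bright, they were also set beside the 4493 genes of mean intensity 1000 or more, a limit chosen after seeing the data: 36.4% of those fell, 28.4% rose and 64.8% were called in either direction. Of the 24 chaperone genes in that range, 15 fell (62.5%) and 1 rose.

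**Figure D1:**
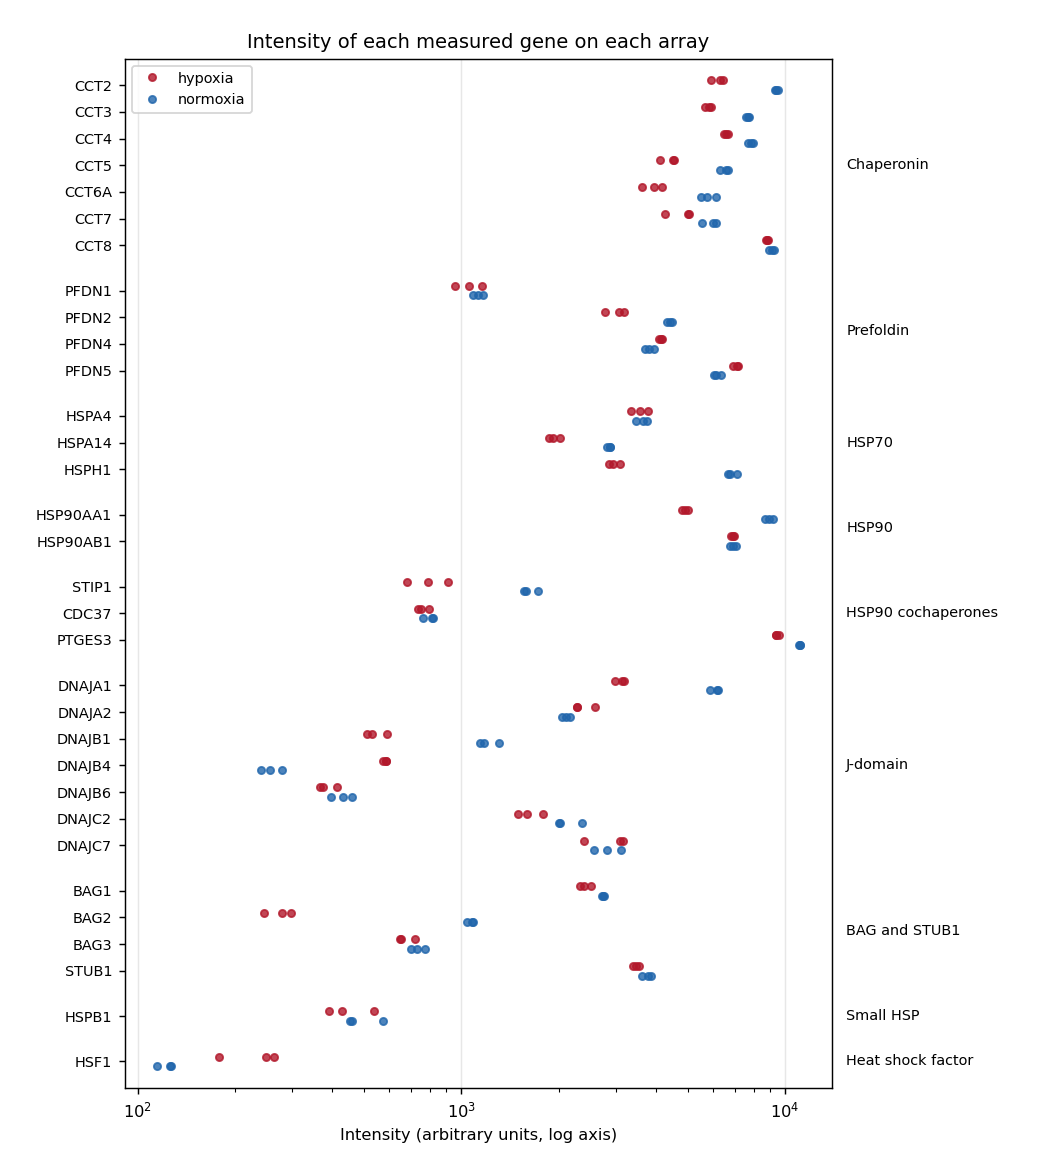
Intensity of the 32 measured genes (rows, grouped by role) on each array, on a log axis; each point is 1 array, hypoxia in red above normoxia in blue. BAG2, HSPH1, STIP1 and DNAJB1 have hypoxia points far left of their normoxia points, DNAJB4 and HSF1 have them to the right, and the 2 conditions overlap for HSP90AB1.

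Most chaperonin subunit genes fell, by modest amounts. The chaperonin is a double ring built from 8 different but related subunits, and 7 of their genes were measured. Of these, 6 fell (85.7%) and 1, CCT8, did not pass, with a median change of -0.40 and a range of -0.60 to -0.044. All 7 had a mean intensity of 1000 or more, and 36.4% of genes in that range fell. CCT2, the beta subunit gene, was at 5896, 6417 and 6291 in hypoxia and at 9394, 9344 and 9542 in normoxia. Every hypoxia array was below every normoxia array by a wide margin (-0.60 on the log2 scale, with a 95% confidence interval of -0.75 to -0.46 and a limma adjusted p of 0.000515).

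CCT5, the epsilon subunit gene, was at 4123, 4528 and 4502 in hypoxia and at 6288, 6589 and 6669.95 in normoxia, a change of -0.57 (limma adjusted p = 0.000970). CCT6A, the zeta subunit gene, was at 3909 ± 266 and 5782 ± 308 (-0.56, limma adjusted p = 0.00213). CCT3, the gamma subunit gene, was at 5790.5 ± 129 in hypoxia and 7653 ± 96.0 in normoxia, a change of -0.40 (limma adjusted p = 0.00172). These 3 genes thus lay between 0.67 and 0.76 times their normoxia level, as did CCT2 at 0.66 times.

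CCT4, the delta subunit gene, fell less, to 6569 ± 109 in hypoxia against 7832 ± 161 in normoxia (-0.25, limma adjusted p = 0.0116). CCT7, the eta subunit gene, was at 4268, 5040.1 and 5005 in hypoxia and at 5537, 5986 and 6140.1 in normoxia (-0.31, limma adjusted p = 0.0413). CCT7 did not pass without any single array (limma adjusted p = 0.0535 to 0.123), with a pseudocount of 1 (0.0548) or with quantile normalization (0.0636). CCT8, the theta subunit gene, was at 8877, 8827 and 8741 in hypoxia and at 9217, 9148 and 8908 in normoxia. Its groups did not overlap, but the gap was small and its change of -0.044 (95% confidence interval -0.17 to 0.082) did not pass.

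Other probe sets of the chaperonin genes mostly showed larger falls. The dimmer probe set of CCT2 was at 1865 ± 213 in hypoxia and 4465 ± 336 in normoxia (-1.26), and that of CCT6A changed by -1.12. For CCT5 a dimmer one was at 126 ± 12.9 and 529 ± 5.47 (-1.95, limma adjusted p over probe sets = 5.42e-05). The dim second probe set of CCT4 went the other way, at 125 ± 20.2 in hypoxia and 89.0 ± 8.37 in normoxia (limma adjusted p over probe sets = 0.0458). With the mean of its probe sets, CCT4 was at 0.084 and did not pass.

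Prefoldin genes did not move as a block. Prefoldin is a jellyfish-shaped complex whose tentacles hold unfolded actin and tubulin, and 4 of the 5 listed subunit genes were measured. Of these, 1 fell (25%), 1 rose (25%) and 2 did not pass, with a median change of 0.0070. Genes of mean intensity 1000 or more, as these 4 were, fell in 36.4% and rose in 28.4% of cases. PFDN2 was at 2770.2, 3075 and 3182 in hypoxia and at 4321, 4402 and 4489 in normoxia. It fell by 0.55 (limma adjusted p = 0.00166), with the groups far apart.

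PFDN5, whose product also binds MYC, was at 6909, 7094 and 7161 in hypoxia and at 6041, 6112 and 6338 in normoxia. The rise of 0.19 was small (limma adjusted p = 0.0339), and it did not pass with median centring (0.13, limma adjusted p = 0.115) or without any one of 5 of the 6 arrays, hypoxia replicate 0 being the exception (limma adjusted p = 0.0653 to 0.108). PFDN4 was at 4119.8 ± 43.2 and 3814 ± 119 (0.11, limma adjusted p = 0.177), with the hypoxia arrays above, while a dimmer probe set of the same gene fell by 0.52. PFDN1 was at 1056 ± 99.8 and 1128 ± 40.7, with overlapping groups. VBP1, which encodes a further prefoldin subunit and was not among the 38, was at 4957 ± 36.2 in hypoxia and 6116 ± 165 in normoxia (-0.30, limma adjusted p = 0.00585).

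**Figure D2:**
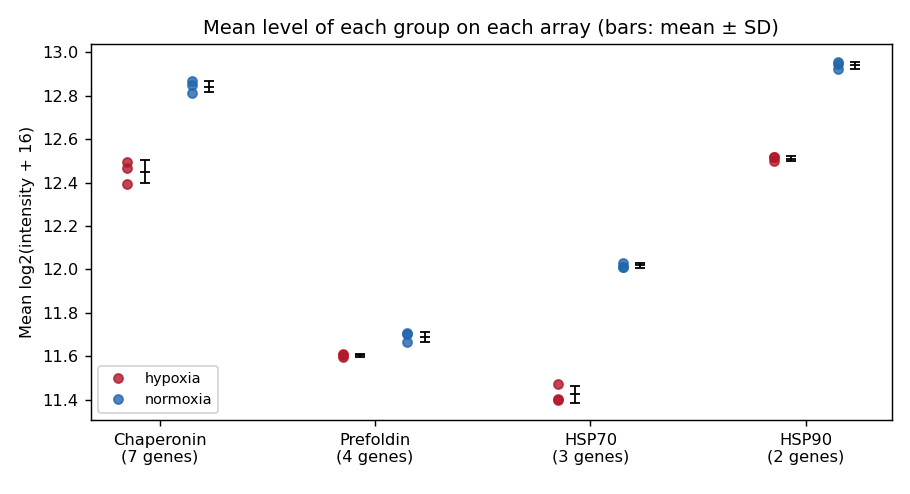
Mean log2(intensity + 16) of the measured genes of the chaperonin, prefoldin, HSP70 and HSP90 groups on each array, hypoxia in red left of normoxia in blue; black bars give the mean ± SD of 3 arrays. The HSP70 group holds HSPH1, HSPA4 and HSPA14 only. Prefoldin shows the smallest gap between conditions, and levels are to be read within a group only, since probe sets differ in brightness.

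Averaged per array on the log2(intensity + 16) scale, the 7 chaperonin genes were at 12.39, 12.49 and 12.47 in hypoxia and at 12.81, 12.85 and 12.87 in normoxia. The 4 prefoldin genes were at 11.61, 11.61 and 11.60 and at 11.70, 11.66 and 11.71. The HSP70 group holds 3 relatives of HSP70, HSPH1, HSPA4 and HSPA14, without HSPA8 or the shared HSPA1A probe sets. For these 3 genes the means were 11.40, 11.47 and 11.41 in hypoxia and 12.01, 12.03 and 12.01 in normoxia. For the 2 HSP90 genes they were 12.52, 12.50 and 12.52 and 12.95, 12.95 and 12.92. The difference between the conditions was thus -0.39 for the chaperonin, -0.085 for prefoldin, -0.59 for these HSP70 relatives and -0.43 for HSP90. Whether the groups differ from each other was not tested, and the HSP70 and HSP90 values rest on few genes that moved unequally.

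Among the 3 genes of the HSP70 group with probe sets of their own, HSPH1 showed the largest fall. HSPH1 encodes HSP110, a large relative of HSP70 that exchanges its nucleotide. It was at 3101, 2940 and 2868 in hypoxia and at 7097, 6749 and 6674 in normoxia. The hypoxia arrays lay at 0.43 times the normoxia level (-1.20 on the log2 scale, with a 95% confidence interval of -1.35 to -1.05 and a limma adjusted p of 6.29e-05). Both of its other probe sets fell further, at -1.69 and -3.11, the last to 63.95 ± 16.2 in hypoxia against 667 ± 74.9 in normoxia.

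HSPA14 encodes an HSP70 relative that pairs with DNAJC2 on the ribosome, where the complex meets nascent chains. It was at 1871, 2024 and 1921 in hypoxia and at 2821, 2879 and 2876 in normoxia, and fell by 0.56 (limma adjusted p = 0.000636). All 3 of its probe sets fell. HSPA4, a second gene of the HSP110 family, was at 3341, 3782 and 3556 in hypoxia and at 3472, 3735 and 3638 in normoxia, with overlapping groups and a change of -0.023. Its probe sets disagreed: 3 did not pass, and a dimmer one fell to 232 ± 45.8 in hypoxia against 915 ± 57.3 in normoxia (-1.93, limma adjusted p over probe sets = 0.000251). Those 3 carry the suffix _x_at or _s_at, which marks probe sets that can match several transcripts, and the one that fell does not. Which of them reads HSPA4 best was not tested.

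The stress-inducible HSP70 genes HSPA1A and HSPA1B are near-identical copies, and the arrays did not separate them. Of 3 probe sets annotated to both, the brightest was at 621, 585 and 568 in hypoxia and at 1724, 1773 and 1711 in normoxia. It changed by -1.53, with a 95% confidence interval of -1.70 to -1.36 (limma adjusted p = 7.01e-05 in a fit over all 54613 probe sets). Another, which also carries HSPA1L, was at 285, 357 and 331 in hypoxia and at 770.2, 815 and 901 in normoxia (-1.31, limma adjusted p = 0.000352 in the same fit). The groups were far apart on both, while the remaining probe set lay far below the array median in each condition.

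The 2 cytosolic HSP90 genes parted. HSP90AA1 encodes the alpha isoform, known as the inducible one, and HSP90AB1 the beta isoform, known as the constitutive one. HSP90AA1 was at 5033, 4812 and 4908 in hypoxia and at 9185, 8918 and 8661 in normoxia. It fell by 0.86 (95% confidence interval -0.99 to -0.72, limma adjusted p = 0.000126), and its 3 other probe sets fell too, at -1.09, -1.06 and -1.68. HSP90AB1 was at 6792, 6923 and 6961 in hypoxia and at 6747, 7040.2 and 6921 in normoxia. The groups overlapped, the change was -0.0021 (95% confidence interval -0.13 to 0.13), and none of its 3 probe sets passed (-0.032 to -0.0021).

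The change of HSP90AA1 less that of HSP90AB1 was -0.86. An exact two-sided permutation test over the arrays, chosen after the values were seen, gave p = 0.1, the smallest that 3 against 3 arrays allow (adjusted p = 0.1 over 3 pairs of related genes). All HSP90AA1 and HSP90AB1 readings could include near-identical processed copies in the genome, which the probe sets may not separate.

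**Figure D3:**
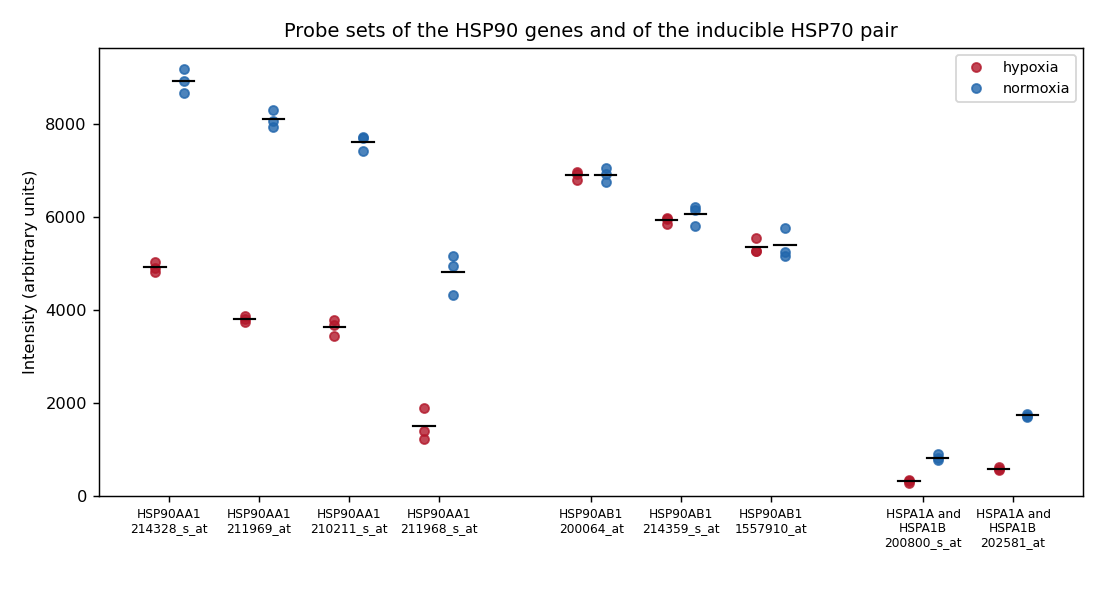
Intensity on each array for every probe set of HSP90AA1 and HSP90AB1 and for the 2 brighter probe sets shared by HSPA1A and HSPA1B (the one ending in _s_at also carries HSPA1L); hypoxia in red left of normoxia in blue, black lines give the mean of 3 arrays. All 4 HSP90AA1 probe sets and both shared HSP70 probe sets are lower in hypoxia, and the 3 of HSP90AB1 overlap.

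Promoter sequences were read from RefSeq (GRCh38.p14) for 33 of the 38 genes, over 250 bases before to 50 bases after each annotated start. HSF1 binds heat shock elements, inverted repeats of GAA. A 2-unit form GAANNTTC and a 3-unit form, in which a further GAA follows it after 2 arbitrary bases, were searched on both strands. The other 2-unit order, TTCNNGAA, was not searched by itself, so the 2-unit counts cover GAANNTTC only. The 3-unit form was found in 5 of these 33 genes (15.2%) and in 0.608% of 27305 genes with a promoter in the table. The 5 were HSPA8, HSP90AA1, HSP90AB1, DNAJA1 and DNAJB6. GAANNTTC, which lies within the 3-unit form, was found in 12 of the 33 (36.4%), against 8.21% of all genes.

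Stretches with a 3-unit element are shown for HSP90AA1, which fell, and for HSP90AB1 and DNAJB6, which did not pass. The HSP90AA1 stretch holds 1 such element and that of HSP90AB1 holds 2. Whether the element bears on the changes was not tested. Capitals mark the 3-unit form as searched, and the last base of each stretch lies upstream of the start. The HSP90AA1 stretch is at chr14:102087100-102087152 on the minus strand, that of HSP90AB1 at chr6:44247758-44247863 and that of DNAJB6 at chr7:157336853-157336905, both on the plus strand.
HSP90AA1: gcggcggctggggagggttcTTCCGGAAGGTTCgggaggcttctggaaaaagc
HSP90AB1: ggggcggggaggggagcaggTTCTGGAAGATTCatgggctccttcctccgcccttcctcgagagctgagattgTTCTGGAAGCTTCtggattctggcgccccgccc
DNAJB6: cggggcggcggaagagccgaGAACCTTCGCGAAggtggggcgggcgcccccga

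The 2-unit elements of HSPA1A, DNAJB1 and BAG2 are shown because their probe sets had some of the larger falls. Chosen in this way, they cannot link the element to a fall. Among those not shown are stretches of CCT2 and DNAJA1, which fell, and of HSPB1, which did not pass. The HSPA1A stretch is at chr6:31815417-31815464 and that of BAG2 at chr6:57172182-57172229 on the plus strand, and that of DNAJB1 at chr19:14518417-14518494 on the minus strand. Capitals mark GAANNTTC.
HSPA1A: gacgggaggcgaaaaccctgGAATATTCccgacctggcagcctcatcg
DNAJB1: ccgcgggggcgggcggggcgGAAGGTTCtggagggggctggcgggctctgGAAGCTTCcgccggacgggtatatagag
BAG2: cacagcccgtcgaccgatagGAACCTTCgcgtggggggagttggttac

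Of the 14 genes with a promoter in the table that fell, 2 held the 3-unit element and 5 held GAANNTTC. Of the 13 measured genes that did not fall, 2 and 3 did. HSPH1 and STIP1 held neither of these forms in this window, where TTCNNGAA by itself was not searched. The core letters of the hypoxia response element, ACGTG and GCGTG on both strands, were found in 8 (24.2%) and 14 (42.4%) of the 33, against 24.9% and 40.6% of all genes. The E-box CACGTG, which contains ACGTG, was found in 1 (3.03%), against 8.77%. A match describes letters in this window and no binding site.

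HSP90 cochaperone genes fell in 2 of 3 cases (66.7%), where 20.6% of all genes and 36.4% of those of mean intensity 1000 or more fell. STIP1 encodes HOP, the adaptor that bridges HSP70 and HSP90. It was at 910.1, 789 and 679.7 in hypoxia and at 1585, 1729 and 1562 in normoxia. The hypoxia arrays were at 0.49 times the normoxia level (log2 change -1.03, limma adjusted p = 0.000959), and the second probe set fell by 0.92. PTGES3 encodes p23, which stabilises the closed HSP90 dimer. At 9429 ± 110.5 in hypoxia and 11090.4 ± 36.6 in normoxia it fell by 0.23 (limma adjusted p = 0.0129), a call that was lost without hypoxia replicate 2 (limma adjusted p = 0.0516). CDC37, which brings kinases to HSP90, was at 762 ± 29.8 and 797 ± 29.6, with overlapping groups.

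Of the 7 J-domain genes 3 fell (42.9%), 1 rose (14.3%) and 3 did not pass. Over all genes 20.6% fell and 16.9% rose, and among those of mean intensity 1000 or more 36.4% fell and 28.4% rose. DNAJB1, DNAJB4 and DNAJB6 lay below that intensity. DNAJA1, a main partner of HSP70 in the cytosol, was at 3141, 3177 and 2992 in hypoxia and at 6188, 6178 and 5871 in normoxia (-0.97, limma adjusted p = 9.97e-05). Its second probe set fell further, at -1.68. DNAJB1 encodes HSP40, a heat-inducible partner of HSP70, and was at 590.2, 530.4 and 511 in hypoxia and at 1309, 1179 and 1139 in normoxia (-1.13, limma adjusted p = 0.000215). Both of its probe sets fell.

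DNAJB4, a close relative of DNAJB1, went the other way. It was at 571, 586 and 585 in hypoxia and at 279.5, 257 and 241 in normoxia, a rise of 1.12 on the log2 scale, with 2.24 times the normoxia intensity (limma adjusted p = 0.000115). The rise rests on 1 of its 2 probe sets, since the other was at 190.03 ± 22.7 and 162 ± 11.8 and did not pass. The change of DNAJB1 less that of DNAJB4 was -2.25, and the change of DNAJA1 less that of its relative DNAJA2 was -1.14 (exact two-sided permutation tests over 3 against 3 arrays, chosen after the values were seen, p = 0.1 each, the smallest possible, and adjusted p = 0.1 over 3 pairs).

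DNAJA2 was at 2379 ± 178 in hypoxia and 2104 ± 64.7 in normoxia, with the hypoxia arrays above, and did not pass (0.17, limma adjusted p = 0.126). Its dimmer probe set lay the other way, at 827 ± 79.3 in hypoxia and 972 ± 44.6 in normoxia, with the hypoxia arrays below. That one did not pass either (-0.23, limma adjusted p over probe sets = 0.111). The difference from DNAJA1 given above used the brightest probe set of each gene. DNAJC2, the ribosome-bound partner of HSPA14, was at 1782, 1592 and 1500.3 in hypoxia and at 2359.5, 2004 and 2017 in normoxia (-0.38, limma adjusted p = 0.0271). That call was lost without any one of 5 of the 6 arrays, hypoxia replicate 0 being the exception (limma adjusted p = 0.0501 to 0.0850), and its second probe set was dim. DNAJB6, a J-domain protein that restrains aggregation of polyglutamine proteins, was at 384 ± 24.7 and 429.9 ± 32.1, with overlapping groups.

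DNAJC7, a J-domain protein with tetratricopeptide repeats, was at 2394, 3167 and 3097 in hypoxia and at 2574, 2813 and 3110 in normoxia, and the groups overlapped on this brightest probe set. Both other probe sets of DNAJC7 rose, one to 630 ± 26.3 in hypoxia against 233 ± 16.7 in normoxia (1.37, limma adjusted p over probe sets = 0.000100) and a dim one by 1.23. With the mean of its probe sets DNAJC7 rose by 0.88 (limma adjusted p = 0.000344), so its call depends on the probe set read.

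Read by the brightest probe set, BAG2 showed the largest fall of all 32 genes. BAG2 is a nucleotide exchange factor of HSP70 that also inhibits the ubiquitin ligase CHIP, the product of STUB1. It was at 246, 298 and 280.2 in hypoxia and at 1082, 1090.01 and 1045 in normoxia. The hypoxia arrays lay at 0.26 times the normoxia level (-1.91 on the log2 scale, with a 95% confidence interval of -2.11 to -1.71 and a limma adjusted p of 4.13e-05). Both dimmer probe sets of BAG2 fell as well, by 0.68 and 0.33, both below the array median in hypoxia.

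The other BAG genes moved little. BAG1 was at 2390.1, 2515 and 2319 in hypoxia and at 2726, 2766 and 2732 in normoxia, with no overlap and a change of -0.19 (limma adjusted p = 0.0480). That call did not hold without any single array (limma adjusted p = 0.0549 to 0.146), with a pseudocount of 1 (0.0543) or with the replicate number as a block (limma adjusted p = 0.0628), and in the fit over probe sets its 2 brighter probe sets did not pass while a dimmer one fell by 1.52. BAG3, which links HSP70 to small heat shock proteins and autophagy and is known as heat-inducible, was at 671 ± 41.7 and 733 ± 38.6 and did not pass. STUB1 was at 3469 ± 80.5 and 3747 ± 121 (-0.11, limma adjusted p = 0.196), lower on all 3 hypoxia arrays, and none of its 3 probe sets passed.

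HSPB1, a small heat shock protein that holds unfolded proteins and is likewise heat-inducible, was at 537, 429 and 391 in hypoxia and at 571, 453 and 461 in normoxia, with overlapping groups. HSF1 itself was at 178, 249 and 265 in hypoxia and at 126, 115 and 127 in normoxia. All 3 hypoxia arrays were above, with a wide spread among them (0.81 on the log2 scale, with a 95% confidence interval of 0.45 to 1.18 and a limma adjusted p of 0.00703). Its second probe set, at 127 ± 5.32 and 104 ± 9.98, did not pass. HSF1 is regulated largely as a protein, which arrays do not measure.

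**Figure D4:**
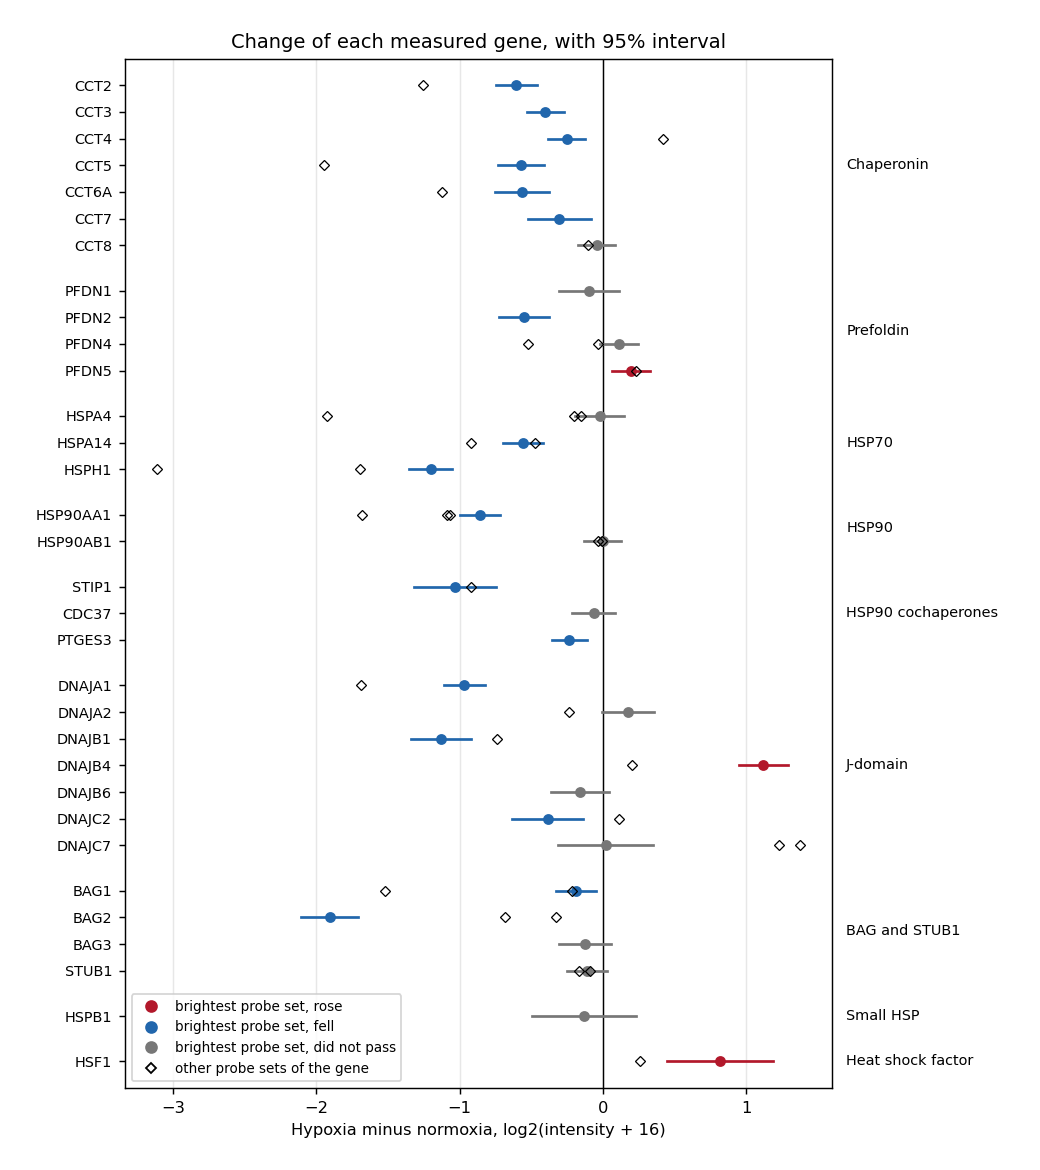
Hypoxia minus normoxia in log2(intensity + 16) for the 32 measured genes, grouped by role; filled points with bars are the brightest probe set and its 95% confidence interval, coloured by call, and open diamonds the other probe sets. Most filled points lie left of 0, from BAG2 at -1.91 to DNAJB4 at 1.12. Some diamonds of HSPA4, HSPH1, CCT5, BAG1, BAG2 and DNAJC7 lie far from their filled points.

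Probe sets of a gene often agreed in direction but not in size. The 32 genes had 67 probe sets in all, of which 33 fell, 6 rose and 28 did not pass (33.8% of all probe sets with 1 symbol were called in either direction). Several probe sets were present for 23 of these genes, 58 probe sets in number. Of 16 called genes with several, 12 had another one past the threshold the same way in the fit over probe sets, and 1, CCT4, one past it the opposite way. Among the genes that fell, 11 had dimmer probe sets that fell too, 16 in number, and 11 of these 16 fell by more than the brightest one. Other probe sets that rose or did not pass, such as those of CCT4 and DNAJC2, were left out of the 16, which favours larger falls. The size of a change therefore depends on the probe set, and which one reads the transcript most evenly was not tested.

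**Figure D5:**
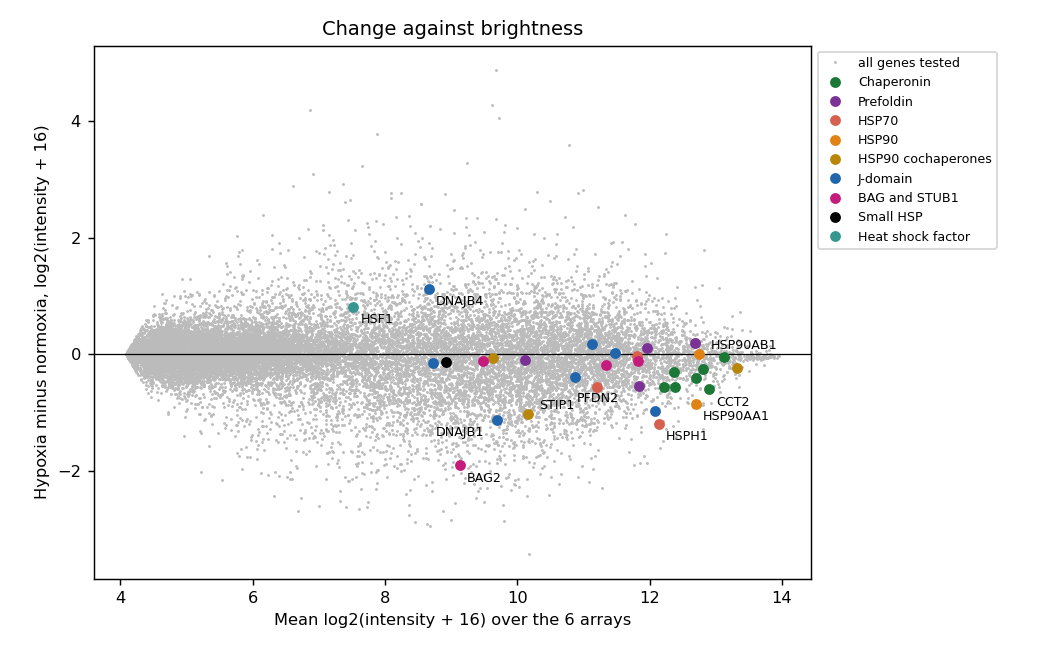
Change (hypoxia minus normoxia) against mean level, both in log2(intensity + 16), for all 19775 genes in grey and the 32 chaperone genes coloured by role. Most of the chaperone genes lie among the brightest genes and below 0, with DNAJB4 and HSF1 above 0 at lower brightness.

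Further genes of the same machinery, from a list of 50 cytosolic chaperone and cochaperone genes outside the 38, were also lower more often than higher. That list, too, was chosen with earlier results of these data known. Of 46 measured, 27 fell, 7 rose and 12 did not pass, with a median change of -0.34. As shares 58.7% fell and 15.2% rose, against 20.6% and 16.9% of all genes. This list is brighter than all genes, with a median of 915 in hypoxia and 1545 in normoxia against 113 and 114. Among genes of mean intensity 1000 or more, 36.4% fell and 28.4% rose. The 7 that rose became 4 with median centring and without hypoxia replicate 0, hypoxia replicate 1 or normoxia replicate 2. The 4 that fell with the smallest adjusted p were FKBP5, an HSP90-bound immunophilin of steroid receptors, at 755 ± 19.2 in hypoxia and 2198 ± 90.6 in normoxia (-1.52), the histone-binding J-domain gene DNAJC9 (-1.39), RUVBL1, an ATPase of the R2TP assembly complex (-1.21), and FKBP4, another HSP90-bound immunophilin (-1.29). Their limma adjusted p-values were at most 9.86e-05. The 4 that rose with the smallest adjusted p were DNAJB2, a J-domain gene, at 399 ± 23.9 and 190.1 ± 15.02 (1.01, limma adjusted p = 0.000261), HSF4 (1.06), the myosin chaperone gene UNC45A (0.53) and BAG6, which handles mislocalised membrane proteins (0.32). HSF4 was at 108 in hypoxia and 43.5 in normoxia, the last below the median probe set of the arrays.

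Chaperone genes of other compartments gave the following counts from the same fit. Most of these genes were bright, so the counts are to be read against the 64.8% called, 36.4% fallen and 28.4% risen among genes of mean intensity 1000 or more. Of 8 mitochondrial chaperone genes 5 fell (62.5%) and 2 rose (25%), the smallest adjusted p being that of HSPE1, the mitochondrial cochaperonin gene, at 4721 ± 55.4 in hypoxia and 8861 ± 239 in normoxia (-0.91, limma adjusted p = 9.49e-05). Of 9 chaperone genes of the endoplasmic reticulum 5 fell (55.6%) and 0 rose, the smallest adjusted p being that of HSPA5, which encodes BiP, at 6060.4 ± 173 and 8925 ± 189 (-0.56, limma adjusted p = 0.000561). Differences between compartments were not tested.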

How the data were processed

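The values deposited by the authors are linear intensities, 1 for each probe set and array, on 3 hypoxia and 3 normoxia arrays. Per the labels' protocols, RNA was isolated with an RNeasy kit and labelled with biotin by way of cDNA. Background correction, probe summary and scaling are not given in the sources used here, and no detection calls were used, so dim signal cannot be told from background. The number of arrays limits the precision.

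Of 54613 probe sets, 41091 were annotated with 1 gene symbol, 1801 with more than 1 and 11721 were unnamed here. Symbols were updated by Entrez identifier through a RefSeq table (41037 matched). In each of 15 pairs of arrays 1.07% to 1.23% of values were identical, so each array was counted as 1 sample. Each gene was read by the probe set brightest on average over the arrays, without a filter on dim genes. The fit used lmFit and eBayes (limma 3.58.1, R 4.3.3) and was applied to log2(intensity + 16), two-sided, without covariates.

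All 38 genes are named, and of the other cytosolic list the 4 in each direction with the smallest adjusted p. The 38 genes and all lists were chosen with earlier results of these data known. The fit was tested on simulated data whose spread was taken from the arrays. Of 50 genes changed at each log2 size of 0.3, 0.5, 1 and 2, the fit recovered 4, 29, 47 and 50 among 19775 genes, with 4 false calls among 134. Far fewer genes were changed there than the 7403 called in the data, and all came from brighter genes. Adjustment was thus stricter in the simulation, so its recovery of small changes does not describe the fit to the data. Suffixes _s_at and _x_at mark probe sets that can match several transcripts.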

Additional observations from a re-analysis of the deposited data

How the results depend on the processing

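The hypoxia and normoxia comparison was repeated under 15 alternatives, and 14 of the 20 called chaperone genes kept their call and direction in all of them; the exceptions were CCT4, CCT7, PFDN5, PTGES3, DNAJC2 and BAG1. The number that fell was 15 to 18 over the alternatives that keep all arrays and 13 to 15 when single arrays were left out. The number that rose was 5 with an intensity trend (DNAJA2 and PFDN4 in addition to the 3), 4 with the mean of probe sets or only genes of intensity 100 or more, 2 with median centring, and 2 to 3 when single arrays were left out. Of the other cytosolic genes, 4 rose with median centring, 9 with a pseudocount of 64 or an intensity trend, and 4 to 6 when single arrays were left out.

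Of the 20 called genes, 2 changed sign without passing, CCT4 with the mean of its probe sets (0.084) and DNAJC2 with probe sets ending in neither _s_at nor _x_at (0.11). Both values drew on dim second probe sets. Several genes that did not pass also changed sign, such as HSP90AB1 (-0.067 to 0.052) and DNAJA2 (-0.030 to 0.22). Of the 12 that did not pass, 5 passed under some alternative, among them HSPA4 at -0.58 with the mean and -1.93 with the unsuffixed probe set.

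The chaperonin median was -0.47 with median centring. The prefoldin median was -0.12 with the mean of probe sets, -0.067 with unsuffixed probe sets, -0.058 with median centring, 0.060 with quantile normalization and -0.030 to 0.040 without single arrays, so it has no settled sign. The HSP70 median was -0.65, -1.93 and -0.62 with the first 3 of these settings, and the HSP90 median -0.59, -0.54 and -0.49, and -0.38 with quantile normalization. The cause was not tested.

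With the replicate number as a block, 3 genes rose and 16 fell, and BAG1 was the call lost (limma adjusted p = 0.0628). Replicate numbers were not treated as pairs in the main fit. Deviations of same-numbered arrays correlated at 0.24, 0.0064 and 0.21 across genes, which are not independent replicates. For different-numbered arrays the values ran from -0.25 to 0.11. Whether same-numbered arrays share an effect was not tested. Low intensity limits the reading of HSF1, DNAJB4 and dim second probe sets.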
